A study of Mus musculus with 12 samples.

Results

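Hnrnpu and its paralogues Hnrnpul1 and Hnrnpul2 were followed across 12 libraries of mouse hippocampal messenger RNA. They are 3 of the 23352 gene entries in the deposited table and were taken by gene name. Hnrnpu was chosen by its FPKM values in these libraries, because its mean in transgenic mice was at least 2 times that in wild-type mice at both ages, so its genotype difference is described without a test. The paralogues were taken for their kinship and not for their values.

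The libraries formed 4 groups of 3 mice on the C57BL/6J strain. The transgenic groups were N40K mice of the Tg396 line at 3 and at 12 months of age, and the control groups were their wild-type littermates without the transgene at the same ages. N40K is a truncated form of U1-70K, a protein of the splicing particle U1 snRNP encoded by Snrnp70, and was driven in neurons by a modified CaMKIIa promoter. All transgenic mice came from 1 line, so an effect of N40K and one of that line's insertion cannot be told apart. The labels name no cage, litter or sex, and p-values measure the spread between these libraries. Relative depth was estimated from the smallest increments in low values and spanned 0.476 to 1.16 of that of replicate 1 of the 3-month wild-type group. The correlation of log2 values within groups was 0.994 to 0.998, and no library was a copy of another.

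hnRNP U, also called scaffold attachment factor A, is an abundant nuclear protein that binds both DNA and RNA. It holds chromatin-associated RNAs such as Xist on chromosomes, takes part in pre-mRNA splicing and is needed for normal brain development. hnRNP U-like 1 and hnRNP U-like 2, the products of Hnrnpul1 and Hnrnpul2, share its domain layout and are known for roles in mRNA export and in the repair of broken DNA ends.

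In the GENCODE M21 annotation Hnrnpu lies on chromosome 1 with 9 annotated transcripts, Hnrnpul1 on chromosome 7 with 5 and Hnrnpul2 on chromosome 19 with 2. That annotation is of another genome build than mm9, the build named for these libraries, so no gene coordinates are given from it. The deposited values are 1 per gene and do not separate transcripts or exons. No stretch of 50 bases was shared between the annotated transcripts of any pair of the 3 genes in that annotation. Hnrnpu shared 6.04% of its 50-base stretches with any other gene, all of these with Cox20, a gene on the opposite strand whose end overlaps its own. Hnrnpul1 shared 0.440% with other genes, and Hnrnpul2 shared 4.41%, all with the annotated entry AC129217.1 on the same strand.

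The region before the start of transcription is shown for the members whose level was higher in the 3 transgenic than in the 3 wild-type libraries at both ages, and for which RefSeq's promoter table holds a sequence. Matches to the GC box (GGGCGG) and the CCAAT box (CCAAT) on either strand are in capitals. The sequences run 5′ to 3′ on the strand of the gene, which is the minus strand for both, and are the 250 bases before the annotated start in build GRCm38.p6, at chr1:178337816-178338065 for Hnrnpu and chr7:25754760-25755009 for Hnrnpul1.
Hnrnpu: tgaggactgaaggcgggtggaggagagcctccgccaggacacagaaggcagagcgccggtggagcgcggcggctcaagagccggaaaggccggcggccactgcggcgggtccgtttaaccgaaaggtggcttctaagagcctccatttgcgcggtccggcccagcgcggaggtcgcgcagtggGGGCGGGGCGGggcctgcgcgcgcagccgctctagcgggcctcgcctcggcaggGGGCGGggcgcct
Hnrnpul1: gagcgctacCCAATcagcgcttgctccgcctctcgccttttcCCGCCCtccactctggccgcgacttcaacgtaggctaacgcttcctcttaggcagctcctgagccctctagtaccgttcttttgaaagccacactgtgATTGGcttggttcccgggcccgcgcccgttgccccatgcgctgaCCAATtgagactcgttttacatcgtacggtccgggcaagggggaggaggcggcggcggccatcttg

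The Hnrnpu sequence held 3 GC box matches, of which 2 overlap by a base, and 0 CCAAT matches. The Hnrnpul1 sequence held 1 GC box match and 3 CCAAT matches. Of 27025 promoters of the same length, 32.9% held a GC box and 34.5% a CCAAT box. The G and C content was 73.6% for Hnrnpu and 61.6% for Hnrnpul1, against a median of 52.0% over these promoters. A match is a description of the letters and not a site of binding.

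Levels are given as FPKM, a fragment count corrected for transcript length and library size, which allows comparison between genes. Hnrnpu averaged 191.9 FPKM over the 12 libraries and ranked 227 among all entries, above 98.4% of the genes tested. Hnrnpul2 averaged 47.4 FPKM, above 89.9% of the genes tested, and Hnrnpul1 23.9 FPKM, above 77.6%. The order Hnrnpu, Hnrnpul2, Hnrnpul1 was the same in each of the 12 libraries.

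In wild-type mice at 3 months Hnrnpu measured 119.8, 122.2 and 118.1 FPKM, and in transgenic mice of that age 258.3, 255.4 and 259.7 FPKM. At 12 months it measured 116.6, 105.2 and 117.8 FPKM in wild-type and 283.6, 287.7 and 258.7 FPKM in transgenic mice. All 6 transgenic libraries thus lay above all 6 wild-type libraries, and no transgenic value came near the wild-type range. The transgenic to wild-type ratio of means was 2.15 at 3 months and 2.44 at 12 months. As differences of mean log2(FPKM + 1) these were 1.10 ± 0.05 (SE) and 1.28 ± 0.05, and the later exceeded the earlier by 0.19 ± 0.07, again without a test because both differences served to pick the gene.

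**Figure D1:**
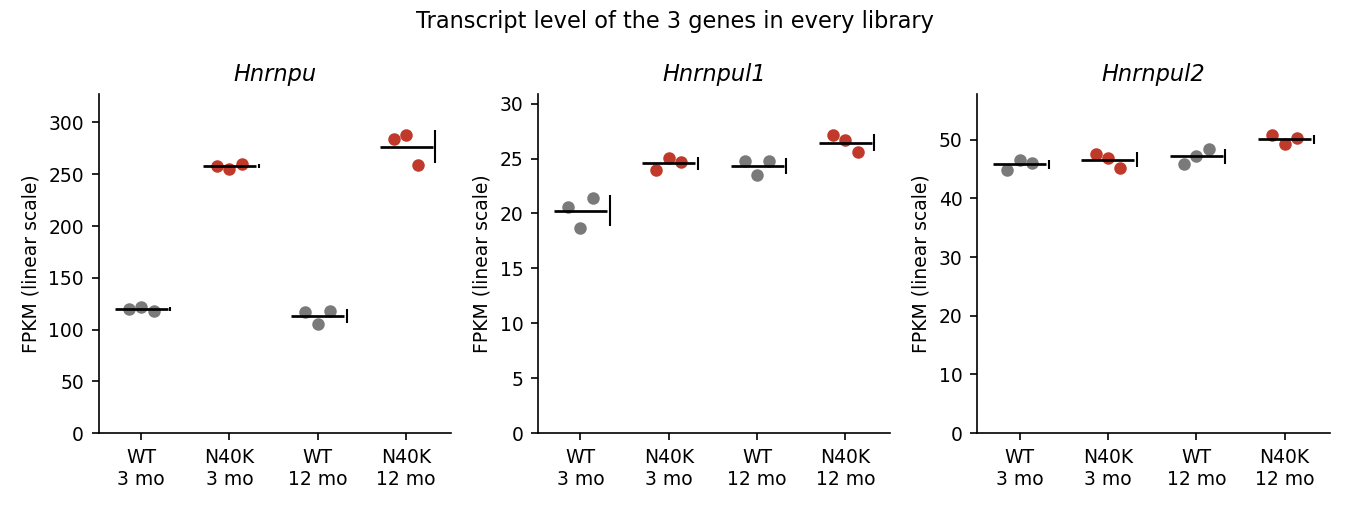
FPKM (linear axis from 0) of Hnrnpu, Hnrnpul1 and Hnrnpul2 in wild-type (WT, grey) and N40K transgenic (red) hippocampus at 3 and 12 months. Points are libraries, horizontal lines are means and vertical lines are 1 SD on each side (n = 3 per group). Hnrnpu lay between 105.2 and 122.2 FPKM in wild-type and between 255.4 and 287.7 FPKM in transgenic libraries, while Hnrnpul2 stayed between 44.9 and 50.8 FPKM in all 12.

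The spread of Hnrnpu between mice was small at 3 months and wider at 12 months. Its coefficient of variation, the SD as a share of the mean, was 1.69% in wild-type and 0.843% in transgenic mice at 3 months, and 6.11% and 5.67% at 12 months. The median gene with a mean of at least 20 FPKM had 3.94%, 4.09%, 6.20% and 3.21% in the same order of groups.

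Snrnp70, the endogenous counterpart of the transgene, served as the check of the labels, although no source used here says whether transgene reads were counted in its entry. It measured 160.8 to 179.1 FPKM in wild-type and 377.3 to 401.0 FPKM in transgenic mice at 3 months, and 95.96 to 137.9 and 258.6 to 320.0 FPKM at 12 months. Among the 1338 tested genes with a mean of at least 50 FPKM, Snrnp70 and Hnrnpu were the 2 whose ratio of means reached 2 at both ages. Hnrnpu stood just inside this line with 2.15 as the smaller of its ratios, a place that rests on its selection for such ratios. The next entry outside it was Peg3as, with 1.79 at 3 and 2.16 at 12 months, followed by Tmem191c with 1.53 and 1.35. Without the limit on level, 71 of 13945 tested genes reached 2 at both ages, and the smaller ratio was above that of Hnrnpu in 59. These counts include genes such as Tas1r3 and Cabp4, which reached 1 FPKM only in transgenic libraries. Within a library Hnrnpu amounted to 0.637 to 0.760 of the Snrnp70 level at 3 months and 0.845 to 1.10 at 12 months. The ranges of that ratio overlapped between the genotypes at each age.

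**Figure D2:**
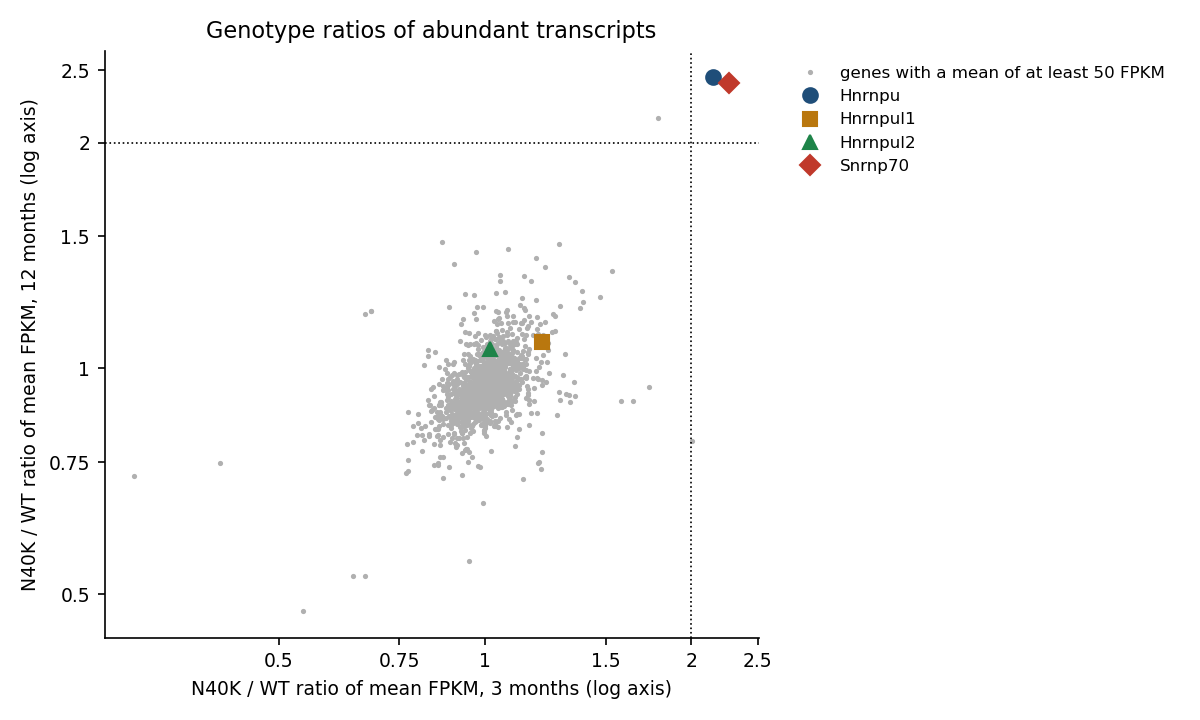
Transgenic (N40K) to wild-type (WT) ratio of mean FPKM at 3 months (x, log axis) against 12 months (y, log axis) for the 1338 tested genes with a mean of at least 50 FPKM, with Hnrnpu, Snrnp70 and the paralogues marked (Hnrnpul1 and Hnrnpul2 lie below 50 FPKM). Dotted lines mark a ratio of 2, which Hnrnpu had to reach at both ages to be chosen. Hnrnpu (2.15 and 2.44) and Snrnp70 (2.27 and 2.41) sit together in the upper right corner, and the paralogues (1.21 and 1.09 for Hnrnpul1, 1.02 and 1.06 for Hnrnpul2) lie at or near the main cloud.

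Cox20, which encodes an assembly factor of cytochrome c oxidase, is the neighbour whose reads can mix with those of Hnrnpu. In GENCODE M21 its exons overlap those of Hnrnpu over 804 bases, which is 91.1% of the exonic length of Cox20 and 6.93% of that of Hnrnpu. No source used here gives the strand setting of the authors' counting, and reads from the overlap may have gone to either gene. Cox20 measured 106.4, 106.4 and 111.3 FPKM in wild-type and 111.5, 117.1 and 109.9 FPKM in transgenic mice at 3 months, with overlapping groups. Its log2 difference was 0.062 ± 0.11 (SE; limma adjusted p = 0.776) at 3 months and 0.26 ± 0.11 (limma adjusted p = 0.113) at 12 months, against 1.10 and 1.28 for Hnrnpu.

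Hnrnpul1, which encodes the export and repair factor hnRNP U-like 1, was higher in transgenic mice at 3 months. It measured 20.6, 18.7 and 21.4 FPKM in wild-type and 23.95, 25.1 and 24.6 FPKM in transgenic mice, so the groups did not overlap. Its group mean was 20.2 ± 1.40 FPKM in wild-type mice against 24.6 ± 0.56 FPKM in the transgenic group (SD, n = 3), which makes 1.21 times. On the log2 scale it rose by 0.27 ± 0.05 (SE), with a limma adjusted p of 0.00647 over all genes tested. At this age 11.4% of all genes were called (7.95% higher and 3.49% lower), and in 31.9% the groups did not overlap (20.4% higher and 11.5% lower). Replicates 2 and 3 of the wild-type group and replicate 3 of the transgenic group had Xist, the RNA of the inactive X of females, at 13.5 FPKM or more, and with Xist as a covariate the difference was 0.26 (limma adjusted p = 0.0179).

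At 12 months Hnrnpul1 measured 24.8, 23.5 and 24.7 FPKM in wild-type and 27.1, 26.7 and 25.6 FPKM in transgenic mice. Every transgenic library again lay above every wild-type library, where the groups did not overlap for 38.8% of all genes (21.3% higher and 17.5% lower). The log2 difference of 0.11 ± 0.05 (95% interval 0.0049 to 0.22) did not pass, with a limma adjusted p of 0.129 at an age where 18.9% of genes were called (11.2% higher and 7.71% lower). The genotype difference at 12 months minus that at 3 months was -0.15 ± 0.07 (95% interval -0.31 to 0.0013, limma adjusted p = 0.354), so the ages were not shown to differ. For this difference 0.0645% of genes, 9 in all, were called, and 1997 had an unadjusted p under 0.05.

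Hnrnpul2, the more abundant paralogue, showed no genotype difference past the threshold at either age. At 3 months it measured 44.9, 46.5 and 46.0 FPKM in wild-type and 47.6, 46.9 and 45.1 FPKM in transgenic mice, with overlapping groups. The log2 difference was 0.024 ± 0.036 (SE, limma adjusted p = 0.744), and its 95% interval of -0.056 to 0.10 corresponds to a ratio between 0.962 and 1.07. With median-ratio scaling its sign turned, to -0.011. At 12 months it measured 45.8, 47.2 and 48.4 FPKM in wild-type and 50.8, 49.2 and 50.3 FPKM in transgenic mice, without overlap. At that age the groups did not overlap for 38.8% of all genes (21.3% higher and 17.5% lower), and 18.9% were called. The Hnrnpul2 difference of 0.086 ± 0.036 had a limma adjusted p of 0.120 and a 95% interval of 0.0060 to 0.17, a ratio between 1.004 and 1.12. Quantile normalization put it past the threshold (0.13, limma adjusted p = 0.0398). The 2 ages were not shown to differ in this effect (0.062 ± 0.051, limma adjusted p = 0.609).

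**Figure D3:**
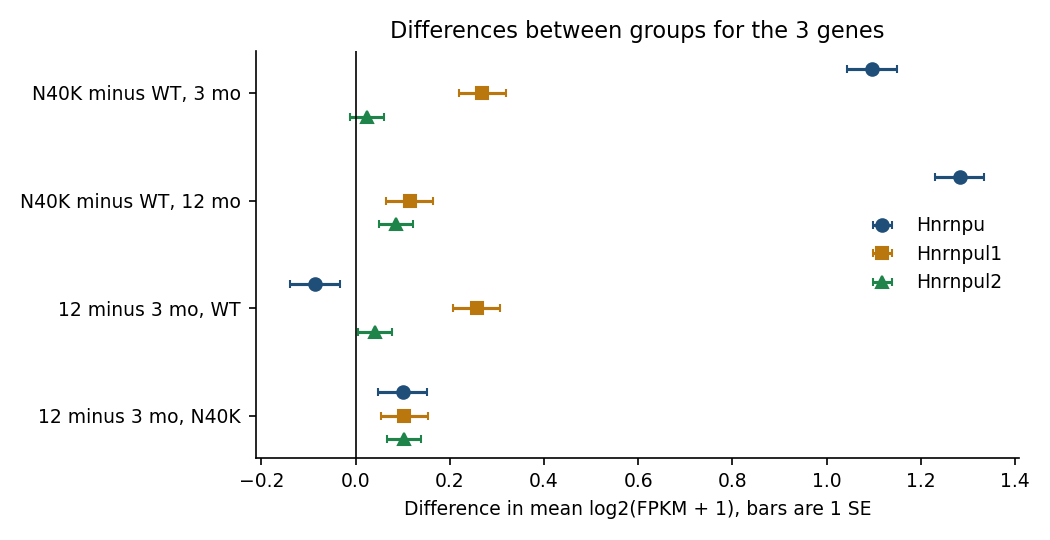
Differences in mean log2(FPKM + 1) for Hnrnpu (circles), Hnrnpul1 (squares) and Hnrnpul2 (triangles) between genotypes at each age and between ages in each genotype. Bars are 1 SE from the limma model over 12 libraries. Hnrnpu stands at 1.10 and 1.28 in the genotype rows, Hnrnpul1 at 0.27 and 0.11, and every age difference is 0.26 or less.

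Age was compared within each genotype. The choice of genes used no difference between ages, but the age p-values of Hnrnpu come from values that also served to pick it. The ages shared no library, yet sex differed between them, since Xist was at 13.5 to 17.3 FPKM in 3 libraries of 3 months and at 0.112 FPKM or less in the other 9. The library identifiers of the 2 ages also run in separate number series, and any difference in handling between the ages cannot be told apart from age. In wild-type mice Hnrnpul1 rose from 20.2 ± 1.40 FPKM at 3 months to 24.4 ± 0.73 FPKM at 12 months (SD, n = 3) without overlap, a log2 difference of 0.26 ± 0.05 (SE, limma adjusted p = 0.00213). Age in wild-type mice was called for 41.6% of all genes, 12.6% higher and 29% lower, and 50.3% did not overlap (15.7% higher and 34.5% lower). With Xist as a covariate the difference was 0.25 (limma adjusted p = 0.0174). In transgenic mice Hnrnpul1 went from 24.6 ± 0.56 to 26.5 ± 0.81 FPKM, 0.10 ± 0.05 on the log2 scale (limma adjusted p = 0.104). Median-ratio scaling (0.20, limma adjusted p = 0.0102) and quantile normalization (0.21, limma adjusted p = 0.00511) put this difference past the threshold. Of the 4 group means of Hnrnpul1, that of wild-type mice at 3 months was thus the lowest. Next came wild type at 12 months (24.4 FPKM) and transgenic at 3 months (24.6 FPKM), whose libraries overlapped, and transgenic at 12 months was highest.

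With all 12 libraries on the deposited scale, no age difference of Hnrnpu passed the threshold. Its age p-values here come from values that also served to pick it, so they are not those of an independent test. In wild-type mice its mean was 120.03 ± 2.03 FPKM at 3 months and 113.2 ± 6.92 FPKM at 12 months (SD, n = 3), with the 3 older libraries all just below the 3 younger ones and a log2 difference of -0.086 ± 0.053 (SE, 95% interval -0.20 to 0.030, limma adjusted p = 0.214). Without replicate 2 of the 12-month group, the lowest of the 6 at 105.2 FPKM, the difference was -0.035 (limma adjusted p = 0.576). In transgenic mice the means were 257.8 ± 2.17 and 276.7 ± 15.7 FPKM, with overlapping libraries and a difference of 0.10 ± 0.05 (95% interval -0.016 to 0.22, limma adjusted p = 0.133). Age in transgenic mice was called for 51.6% of all genes, 15.1% higher and 36.5% lower. Replicate 3 of the 12-month transgenic group was the lowest of its group for Hnrnpu, and without it the age difference was 0.15 (limma adjusted p = 0.0424). Median-ratio scaling (0.20, limma adjusted p = 0.01995) and quantile normalization (0.30, limma adjusted p = 0.00316) also put it past the threshold. Under those scalings the same change in wild-type mice was -0.0051 and -2.6e-04. The change of Hnrnpu with age was not tested between the genotypes, because that difference comes from the values that served to pick the gene.

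For Hnrnpul2 the wild-type age difference was 0.041 ± 0.036 (SE, limma adjusted p = 0.387), and the same 2 scalings gave 0.12 and 0.12 (limma adjusted p = 0.0248 and 0.0357). In transgenic mice it rose from 46.6 ± 1.28 to 50.1 ± 0.77 FPKM (SD, n = 3), 0.10 ± 0.04 on the log2 scale (limma adjusted p = 0.0329). All 3 libraries of 12 months lay above the 3 of 3 months, where the ages did not overlap for 62.8% of genes (19.1% higher and 43.7% lower). This call ended without replicate 2 (limma adjusted p = 0.0587) or 3 (0.121) of the 3-month group or without replicate 1 (0.101), 2 (0.0510) or 3 (0.0806) of the 12-month group. It also ended with Xist as a covariate (limma adjusted p = 0.0707) and with the replicate number as a block (limma adjusted p = 0.0569). Median-ratio scaling and quantile normalization moved the difference up, to 0.20 (limma adjusted p = 0.00122) and 0.24 (limma adjusted p = 5.99e-04).

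The deposited scale bears on these small age differences. As deposited, 30.3% of the age calls in wild-type mice were higher, against 51.7% with median-ratio scaling and 49.5% with quantile normalization. In transgenic mice the shares were 29.3%, 49.8% and 46.5% in that order. At 3 months 69.5% of the genotype calls were higher as deposited, 52.7% with median-ratio scaling and 54.5% with quantile normalization. Hnrnpul1 was called higher in transgenic mice at 3 months under both (limma adjusted p = 0.0188 and 0.00872).

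A ratio of 2 genes within a library does not change when all its values are multiplied by a common factor, although quantile normalization can change it. Hnrnpul1 amounted to 0.459, 0.402 and 0.466 of Hnrnpul2 in wild-type and 0.503, 0.534 and 0.546 in transgenic mice at 3 months. The wild-type libraries of 12 months had ratios of 0.541, 0.498 and 0.511, and the transgenic ones 0.534, 0.542 and 0.509. The groups were apart at 3 months and overlapped at 12 months. For the tests the log2 ratio was taken after 1 was added to each FPKM, so it is not wholly free of a common factor. Over both ages this log2 ratio was 0.14 higher in transgenic mice (two-sided exact permutation test within ages, p = 0.035, adjusted over 2 tests p = 0.06). Over both genotypes it was 0.11 higher at 12 months (two-sided exact permutation test within genotypes, p = 0.06, adjusted p = 0.06). Neither passed, where 400 regroupings allow a smallest p of 0.005. Hnrnpu made up 59.8% to 65.2% of the summed FPKM of the 3 genes in wild-type libraries and 77.3% to 79.1% in transgenic libraries, a description that rests on its selection.

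The 26 other hnRNP genes listed here encode the wider set of abundant nuclear proteins that coat pre-mRNA. At 3 months 3 of the 26 were called higher and 1 lower, and at 12 months again 3 and 1, with medians of -0.010 and -0.013 against 0.020 and 0.0066 over all genes. Over all genes 7.95% were called higher and 3.49% lower at 3 months, and 11.2% higher and 7.71% lower at 12 months. Their transgenic to wild-type ratios of means ran from 0.835 to 1.31 at 3 months and from 0.848 to 1.46 at 12 months, below the 2.15 and 2.44 of Hnrnpu. Hnrnph3 was higher by 0.36 ± 0.07 (SE, limma adjusted p = 0.00829) at 3 and 0.34 ± 0.07 (limma adjusted p = 0.00769) at 12 months, although some of its exons overlap Rufy2. Hnrnpa1, a splicing repressor gene, stood 0.38 ± 0.10 higher (limma adjusted p = 0.0375) at 3 and 0.52 ± 0.10 (limma adjusted p = 0.00637) at 12 months, and copies of it in the genome make its reads uncertain. Hnrnph1, a splicing regulator gene, was lower, at -0.26 ± 0.05 (limma adjusted p = 0.0119) and -0.23 ± 0.05 (limma adjusted p = 0.0133). By mean FPKM Hnrnpu ranked 5 among these 29 hnRNP genes in both wild-type groups, behind genes such as Hnrnpa2b1, Hnrnpk and Hnrnph1, and 1 in both transgenic groups. This change of rank and the larger ratios of Hnrnpu are descriptions that rest on its selection. Hnrnpul2 ranked 13 to 16 and Hnrnpul1 21 to 26 in the 4 groups.

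**Figure D4:**
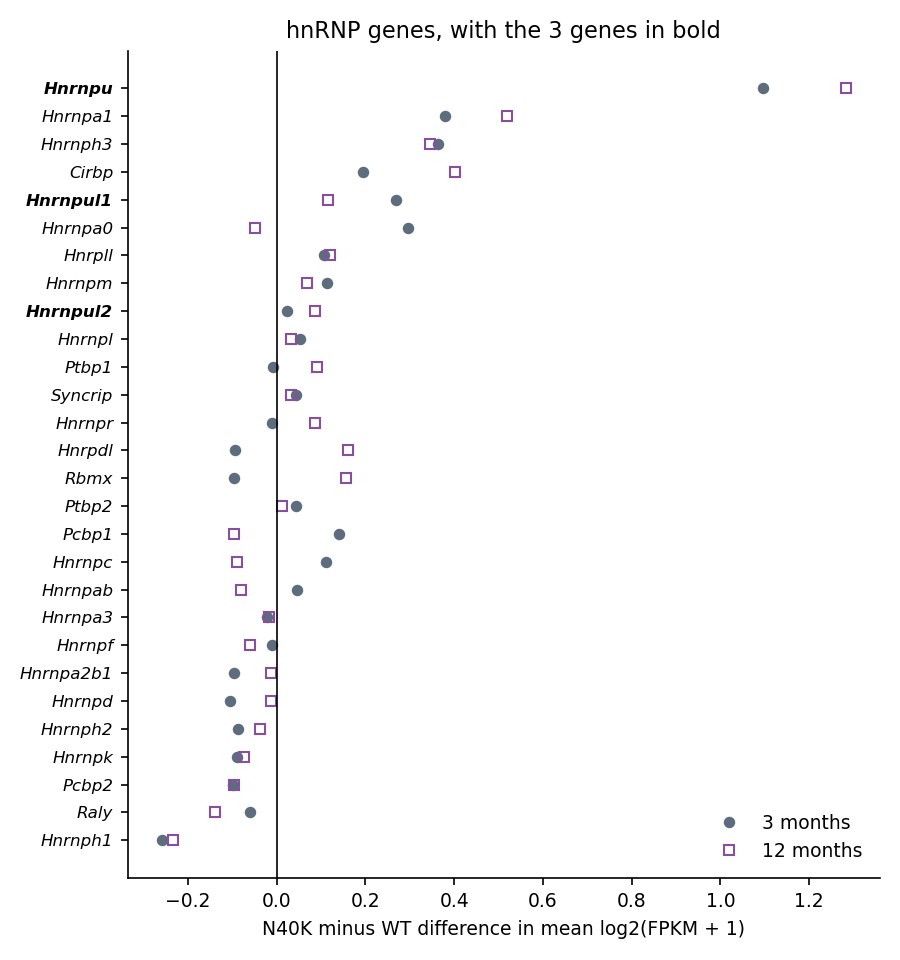
Transgenic (N40K) minus wild-type (WT) difference in mean log2(FPKM + 1) at 3 months (filled circles) and 12 months (open squares) for 25 of the 26 other hnRNP genes and, in bold, the 3 genes described here. Genes are ordered by the mean of both differences. Hnrnpu stands at 1.10 and 1.28, and the other hnRNP genes plotted lie between -0.26 and 0.52.

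Genes related to the 3 proteins by a shared domain, a partnership or a process were taken from lists. They were counted beside the shares called over all genes given above. Over all 13945 genes tested, 3552 had an unadjusted p under 0.05 at 3 months and 4801 at 12 months. Of 14 genes listed for SAP-domain and scaffold attachment proteins, 0 were called by limma at 3 months and 3 had an unadjusted p under 0.05. At 12 months 3 were called higher and 0 lower, with a median of 0.075. They were Sltm (0.39 ± 0.08, SE, limma adjusted p = 0.00641), the SUMO ligase gene Pias3 (0.22 ± 0.04, limma adjusted p = 0.00457) and the Ku subunit gene Xrcc6 (0.20, limma adjusted p = 0.0160), the last overlapping Desi1. Of 17 genes for cohesin, CTCF and nuclear architecture, 0 were called higher and 2 lower at each age, with medians of -0.060 and 0.030 and with 7 and 6 at an unadjusted p under 0.05. These were Top2b, a DNA topoisomerase gene overlapping Rarb, at -0.44 ± 0.04 (limma adjusted p = 9.74e-05) and -0.32 ± 0.04 (limma adjusted p = 5.82e-04), and the cohesin regulator gene Pds5b at -0.29 ± 0.05 (limma adjusted p = 0.00581) and -0.36 ± 0.05 (limma adjusted p = 0.00124).

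Of 10 nuclear long noncoding RNAs 9 were in the table and 8 were tested. At 3 months limma called 0, with 0 at an unadjusted p under 0.05, and at 12 months 1 was higher, Rian, which hosts small RNAs, by 0.34 ± 0.08 (SE, limma adjusted p = 0.0130). The libraries of 3 months with Xist, the best known RNA held by hnRNP U, had Hnrnpu at 122.2 and 118.1 FPKM in wild-type mice against 259.7 FPKM in the transgenic group. The libraries of 3 months without it had 119.8 FPKM, and 258.3 and 255.4 FPKM.

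Among 11 genes of DNA end processing and repair, 0 were called higher and 1 lower at 3 months, and 4 higher and 1 lower at 12 months, with medians of 0.038 and 0.16. The DNA glycosylase gene Neil1 (0.52 ± 0.11, SE, limma adjusted p = 0.00967) and Prkdc, which encodes the DNA-dependent protein kinase (0.39 ± 0.08, limma adjusted p = 0.00991), were higher at 12 months. Parp1, the polymerase that marks broken DNA, was at -0.15 ± 0.04 at both ages (limma adjusted p = 0.0236 and 0.0141). Of 9 tested genes for U7 snRNP and histone 3′ end factors, 1 was called higher at 3 months and 2 at 12 months, and 0 lower. Srrt, a cap-binding complex partner gene, was higher by 0.33 ± 0.07 (limma adjusted p = 0.00887) and 0.23 ± 0.07 (limma adjusted p = 0.0310), and the histone gene regulator Npat by 0.29 ± 0.07 (limma adjusted p = 0.0161) at 12 months. Of 15 mRNA export genes, 3 were called higher and 2 lower at 3 months and 4 and 1 at 12 months. The helicase genes Ddx39b (0.22 ± 0.04 and 0.21 ± 0.04, limma adjusted p = 0.00525 and 0.00584) and Ddx39 (0.22 ± 0.05 and 0.24 ± 0.05, limma adjusted p = 0.0204 and 0.00856) were higher at both ages, and Thoc1, a gene of the THO export complex that overlaps Usp14, was lower at 3 months (-0.22 ± 0.05, limma adjusted p = 0.0145).

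Around each member the 3 nearest measured genes on either side were examined. Near Hnrnpu the 6 neighbours were Adss, Desi2, Cox20, Efcab2, Kif26b and Smyd3, and 1 of them was called at each age, where 11.4% of all genes were called at 3 months and 18.9% at 12 months. This was Adss, the adenylosuccinate synthase gene, which was lower in transgenic mice. Adss averaged 38.7 ± 1.42 FPKM in wild-type mice against 25.9 ± 1.17 FPKM in the transgenic group at 3 months (SD, n = 3), and 33.97 ± 0.96 and 24.5 ± 0.22 FPKM at 12 months. Its log2 differences were -0.56 ± 0.04 (SE, limma adjusted p = 3.59e-05) and -0.46 ± 0.04 (limma adjusted p = 8.46e-05). The other 5 neighbours stood between -0.064 and 0.12 at 3 months and between -0.087 and 0.26 at 12 months. Of the 6, 1 had an unadjusted limma p under 0.05 at 3 months and 3 at 12 months. Over all 13945 genes tested these were 3552 and 4801. Near Hnrnpul1, 5 of 6 neighbours were tested and limma called 0 at either age, with 0 and 1 at an unadjusted p under 0.05. Near Hnrnpul2, 5 of 6 were tested. At 3 months limma called 0, with 1 at an unadjusted p under 0.05, and at 12 months, when 18.9% of all genes were called, 2, Polr2g, an RNA polymerase II subunit gene (-0.20 ± 0.04, limma adjusted p = 0.0112), and Bscl2, the seipin gene overlapping Gng3 (-0.17 ± 0.05, limma adjusted p = 0.0287). At 12 months 4 of these 5 neighbours had an unadjusted limma p under 0.05.

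The genes whose pattern across the 12 libraries was most like that of each member were ranked by Pearson's r of log2(FPKM + 1), a description over libraries that share genotype and age. For Hnrnpu, which was chosen for its split by genotype, the highest were Tas1r3 (r = 0.990), Cabp4 (0.988), Shisa7 (0.988), Sf3b3 (0.987) and AA474331 (0.987). Tas1r3 averaged 0.42 FPKM in wild-type mice against 1.78 FPKM in the transgenic group at 3 months, and Cabp4 0.72 against 2.08 FPKM. Both stayed below 1 FPKM in every wild-type library, so they passed the filter for testing only through the transgenic groups. Sf3b3, a splicing factor gene with a small overlap with Cog4, averaged 25.8 FPKM in wild-type mice against 37.2 FPKM in the transgenic group at 3 months, and 25.97 and 36.8 FPKM at 12 months. Shisa7, which encodes a synaptic receptor auxiliary protein, averaged 30.5 and 45.9 FPKM, then 30.4 and 45.4 FPKM. The lowest were Chordc1 (r = -0.978), Scg5 (-0.977) and Tmem135 (-0.977). Snrnp70 ranked 104 (r = 0.923), Hnrnpul1 1271 (0.647) and Hnrnpul2 2103 (0.520) in likeness to Hnrnpu.

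For Hnrnpul1 the most alike were Cort (r = 0.931), Ankrd33b (0.922), Mboat2 (0.921), Ocel1 (0.914) and Zc3h6 (0.910). Cort, the cortistatin neuropeptide gene, averaged 8.54 FPKM in wild-type mice at 3 months and 12.7 to 14.96 FPKM in the other 3 groups. For Hnrnpul2 they were Clmn (r = 0.971), Yod1 (0.970), Chic1 (0.963), Zbtb26 (0.960) and Fras1 (0.956). Clmn averaged 10.5, 11.2, 11.8 and 13.9 FPKM in wild-type and transgenic mice at 3 months and wild-type and transgenic mice at 12 months.

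Markers of the cells in the tissue were checked beside these results. The hippocampal markers Neurod6, Wfs1, Prox1 and C1ql2 were at 5.96 FPKM or more in every library. In whole tissue, more or fewer cells of a type and more or less RNA per cell cannot be told apart. The 8 pyramidal neuron markers summed to 1811 to 1980 FPKM in wild-type and 1692 to 1974 FPKM in transgenic mice at 3 months, and to 1726 to 1837 and 1495 to 1614 FPKM at 12 months. Of these 8 markers 0 were called higher and 1 lower at 3 months, and 1 higher and 3 lower at 12 months. Over all genes 3.49% were called lower at 3 months, and 11.2% higher and 7.71% lower at 12 months. The lower marker at 3 months was Spink8 (-0.53 ± 0.13, SE, limma adjusted p = 0.0249), which stood at -0.52 ± 0.13 at 12 months (limma adjusted p = 0.0190). The glutamate transporter gene Slc17a7 had the smallest p of the lower ones at 12 months (-0.31 ± 0.06, limma adjusted p = 0.00456), and the higher one was Wfs1 (0.58 ± 0.12, limma adjusted p = 0.00789). Each of the lists for interneurons, dentate granule neurons, astrocytes, oligodendrocytes, microglia, and endothelial and mural cells held 6 markers. Of these limma called 0 at 3 months, with at most 1 per list at an unadjusted p under 0.05. At 12 months all 6 endothelial and mural markers stood above 0, between 0.21 and 0.32 with a median of 0.24, and 5 of them had an unadjusted p under 0.05. Over all 13945 genes tested, 4801 had such a p at that age. The summed FPKM of these 6 markers was 29.7 to 34.2 in wild-type and 37.7 to 39.3 in transgenic libraries of that age, without overlap. One of them, Flt1, was called higher (0.32 ± 0.07, limma adjusted p = 0.0115), and the dentate Plk5 (-0.67 ± 0.17, limma adjusted p = 0.0210) and the microglial Tmem119 (-0.24 ± 0.07, limma adjusted p = 0.0375) lower. All 6 oligodendrocyte markers stood below 0, from -0.29 to -0.14 at 3 months and from -0.25 to -0.017 at 12 months. Their 12-month sums did not overlap, at 1517 to 1646 FPKM in wild-type and 1361 to 1452 FPKM in transgenic libraries. The 12-month sums of astrocyte (481 to 530 and 539 to 568 FPKM) and dentate markers (100.1 to 111.4 and 89.8 to 96.1 FPKM) did not overlap either. At that age the groups did not overlap for 38.8% of all genes (21.3% higher and 17.5% lower). Of 6 markers each, 0 astrocyte, 1 oligodendrocyte and 3 dentate ones had an unadjusted limma p under 0.05 at 12 months. Single astrocyte markers ran from -0.097 to 0.27 and dentate ones from -0.67 to 0.25, in both directions. All 6 choroid plexus markers stood below 0 at both ages. Of 5 tested markers each of striatum and thalamus, 0 were called at either age, with at most 1 per list at an unadjusted p under 0.05. The 6 choroid plexus markers varied most, from 28.8 to 5907 FPKM in sum, with 0 called and 0 at an unadjusted p under 0.05, and no marker on these lists was listed at 0 in any library. Replicate 3 of the 3-month wild-type group, with the highest choroid plexus sum, had Hnrnpu at 118.1 FPKM. The part of these markers in the differences of the 3 genes was not tested.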

How the data were processed

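Messenger RNA of 12 hippocampi was poly-A selected, prepared with a TruSeq kit and read as 100 bp pairs, per the labels' protocols. The authors deposited FPKM values in 1 table of 23352 entries, 128 of them with joined gene names. CASAVA, STAR, BWA and the mm9 build are named per the submitters' processing notes, without versions or roles. The counting tool, its annotation and its strand handling are not given in the sources used here.

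For tests, 1 was added to each FPKM and the log2 taken, with the deposited scale kept. The 13945 genes that reached 1 FPKM in 3 or more libraries were tested. This scale understates the change of low genes. One limma model (limma 3.58.1, R 4.3.3) with a mean per group gave all contrasts, two-sided, with eBayes and a trend, Benjamini-Hochberg adjustment over all genes and a threshold of 0.05. Depth in reads is not recorded in the table. On simulated data for the 3-month comparison with 200 changed genes among 13945, 88.0% of those changed by 0.5 and 93.0% of those changed by 1 were recovered, with 9 false calls among 190. The simulated noise was independent between genes, and changes as small as those of the paralogues were not simulated.

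Members and lists were chosen with earlier results of these data known. Named genes were the members, Snrnp70, the 5 most alike to each member by r (and 3 least alike to Hnrnpu), up to 2 called genes per list and genotype contrast, called neighbours, and genes of at least 50 FPKM with a ratio of at least 2 at both ages. Xrcc6 and Tmem191c were named after their values were seen. The values of 1 hnRNP gene are not reported here, and it stays in the counts of its list. Neighbours were taken among genes with a row in the table. Promoters are from RefSeq (GRCm38.p6), which held 2 of the 3 members. Exon overlap and shared 50-base stretches used GENCODE M21.

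Replicate numbers were tried as a block. Deviations of same-numbered libraries correlated at -0.456 to 0.197 between genotypes and at -0.406 to 0.030 between transgenic ages. Between the wild-type ages they correlated at 0.246, 0.263 and 0.343, a pairing read from these correlations alone. Also tried were other pseudocounts (0.5 and 0.1), leaving the filter out, a floor of 5 FPKM on the mean, median-ratio and quantile scaling, Xist as a covariate, robust eBayes, 6 libraries alone and each library left out. Tables were made in Python 3.11.15 (pandas 2.3.3) and plots with matplotlib 3.10.9.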

Additional observations from a re-analysis of the deposited data

How the results depend on the processing

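Over 22 alternatives Hnrnpu stood between 1.06 and 1.11 at 3 months and between 1.23 and 1.38 at 12 months, the highest with quantile normalization, which also moved the difference between the ages to 0.30. Hnrnpul1 was called at 3 months in all 22 (limma adjusted p 0.00477 to 0.0294) and for age in wild-type mice in all 23 (5.87e-04 to 0.0179), and at 12 months in 0 of 22 (0.0693 to 0.317). Median-ratio scaling turned Hnrnpul2 at 3 months to -0.011 and put 3 age differences past the threshold, Hnrnpul2 in wild type (0.12) and Hnrnpu (0.20) and Hnrnpul1 (0.20) in transgenic mice. Quantile normalization did so too (0.12, 0.30 and 0.21) and added Hnrnpul2 between genotypes at 12 months (0.13). The age p-values of Hnrnpu come from values that also served to pick it.

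Hnrnpul2 by age in transgenic mice lost its call with Xist as a covariate (0.099) and with the replicate block (0.10). With a library left out it ran from 0.081 to 0.12, and Hnrnpu by age in transgenic mice from 0.071 to 0.15. The log2 ratio of Hnrnpul1 to Hnrnpul2 ran from 0.11 to 0.16 between genotypes (adjusted p 0.03 to 0.11, exact permutation) and from 0.076 to 0.13 between ages (adjusted p 0.045 to 0.125, exact permutation) with a library left out. The replicate block, also in the 6 wild-type libraries alone (chosen after seeing the data), changed no other call of the 3 genes.

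Genes called between genotypes numbered 796 to 2227 at 3 months and 1337 to 2607 at 12 months with a library left out. At 3 months they numbered 1013 and 796 without wild-type replicates 1 and 2 and 863 and 870 without transgenic replicates 2 and 3. At 12 months they numbered 1337 and 1384 without transgenic replicates 1 and 2 and 1532 in the 6 libraries alone. For the difference between the ages, 9 as reported, they numbered 0 to 162 with a library left out. The count was 162 without replicate 1 and 3 without replicate 2 of the 3-month transgenic group, 20 without replicate 3 of the 12-month wild-type group and 1 without replicate 3 of the 3-month wild-type group. Limma called 0 without wild-type replicates 1 or 2 or transgenic replicate 3 of 3 months and without wild-type replicate 2 or transgenic replicates 2 or 3 of 12 months. It also called 0 with Xist as a covariate and with the replicate block, where 1832 and 1924 genes had an unadjusted p under 0.05. The cause of these changes was not tested. A fit that leaves out a library takes the spread of the remaining 2 as that of the other groups. Read depth is unknown on an absolute scale.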
